A study of Mus musculus with 6 samples.

Results

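The receptors, kinases and transcription factor that carry interleukin-6 (IL-6) family signals, together with the receptor genes of interleukin-1 (IL-1), were followed in mouse liver after knockdown of the long non-coding RNA Hnf1aos1. The genes were taken by symbol from the deposited count table: Il6ra, Il6st, Osmr, Lifr, Jak1, Tyk2, Stat3, Il1r1, Il1rap and Il1rn. They are 10 of the 40803 genes in that table, and all 10 were among the 16327 genes with enough reads to be tested. The RNA came from livers of C57BL6 mice on a normal diet, 1 library per mouse. The rAAV8-Scramble group (3 mice) had received a recombinant adeno-associated virus of serotype 8 that carries a scrambled hairpin RNA, and the rAAV8-Hnf1aos1 group (3 mice) the same kind of virus with a hairpin against Hnf1aos1. The mice were males, about 6 weeks old when the virus was given into the tail vein, and the livers were collected 4 weeks afterwards. The hairpin was made from the U6 promoter, which is not restricted to a cell type, and the vector also expressed the fluorescent protein EGFP from the CAG promoter. Animals of both groups therefore carried virus and a hairpin, and mice without virus were not analysed here. The question was whether lowering Hnf1aos1 goes together with different levels of these genes.

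In the liver, IL-6 binds its receptor Il6ra on hepatocytes, and the complex joins the shared signalling chain gp130, which is encoded by Il6st. Oncostatin M and leukaemia inhibitory factor use the chains Osmr and Lifr, each paired with gp130. The kinases Jak1 and Tyk2 sit on these chains and phosphorylate Stat3, which then turns on fibrinogen and other acute phase genes, and also its own inhibitor Socs3. IL-1 binds Il1r1, which signals only together with Il1rap, and Il1rn is a secreted antagonist that occupies the receptor without signalling.

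The libraries held between 14704746 and 19462398 reads assigned to genes. Hnf1aos1 itself (chr5:114968784-114998042, plus strand, GRCm38) stood at 512.0, 490.6 and 620.3 normalized counts in rAAV8-Scramble replicates 1, 2 and 3 and at 278.5, 258.5 and 432.9 in rAAV8-Hnf1aos1 replicates 1, 2 and 3, where a normalized count is the read count scaled to a common effective library size. All 3 knockdown libraries lay below all 3 controls, with a log2 fold change of -0.74 ± 0.20 (SE, n = 3 per group) and an edgeR adjusted p of 0.0625, short of the 0.05 threshold. rAAV8-Hnf1aos1 replicate 3 kept the most Hnf1aos1 of its group and stood furthest from its group in the whole profile: the chi-square per gene of its counts was 28.7 against replicate 1 and 20.3 against replicate 2, while the other pairs within a group gave 7.10 to 13.9. Calls and fold changes of single genes that move most with this library are also given without it. Hepatocyte markers were abundant, with summed levels of 83475 to 88680 TPM (transcript abundance scaled by length and depth) in rAAV8-Scramble and 77242 to 93621 TPM in rAAV8-Hnf1aos1, and of the 8 only Tat passed the test, with a lower level.

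Of the 10 genes, Osmr and Il1r1 rose in the rAAV8-Hnf1aos1 livers, by 1.59-fold and 1.84-fold. The call is an edgeR quasi-likelihood test with a Benjamini-Hochberg adjusted p under 0.05 over all genes tested. At that threshold 6.32% of all genes tested were called, 3.09% as higher and 3.23% as lower. Il6st, Lifr, Jak1 and Stat3 had higher values in all 3 knockdown libraries than in any control without passing the test, Il6ra and Il1rap had lower ones, and Tyk2 and Il1rn overlapped between the groups. The normalized counts of 8 of the 10 genes thus did not overlap between the groups, 6 of them higher and 2 lower. Among all genes tested, 28.9% did not overlap, 15.2% higher and 13.7% lower. An unadjusted edgeR p under 0.05 was found for the same 8 genes, beside 23.4% of all genes tested, which were 12.0% higher and 11.4% lower. The median log2 fold change of the 10 genes was 0.47, beside -0.000396 over all genes tested. DESeq2 on the same counts called 6 of the 10, all higher (Il6st, Osmr, Lifr, Jak1, Stat3 and Il1r1), beside 6.96% of the genes it tested, 3.57% higher and 3.39% lower. In whole liver, fewer cells of a type and less RNA per cell cannot be told apart.

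**Figure D1:**
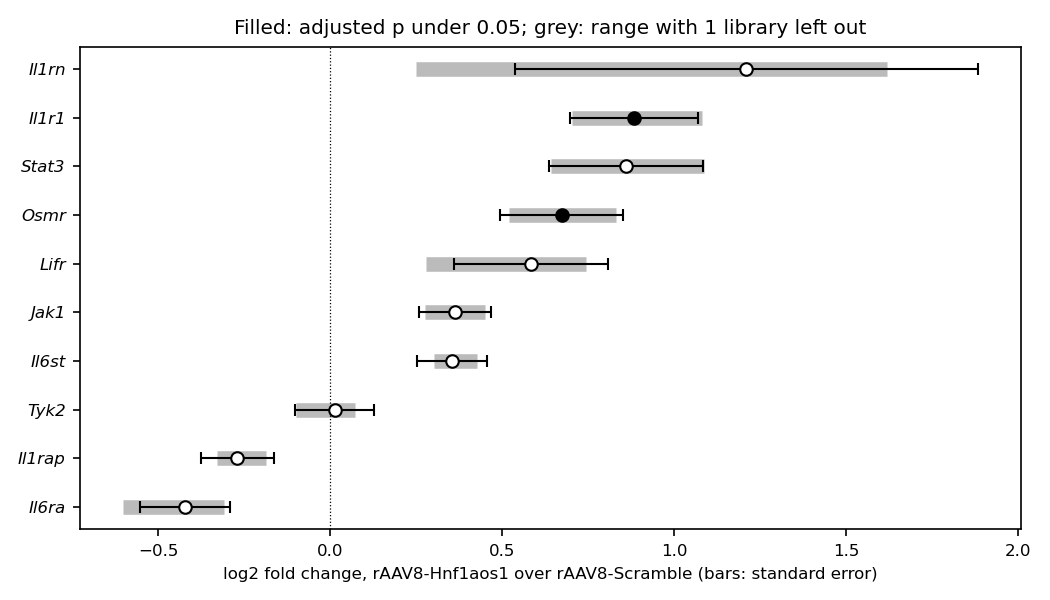
Log2 fold change of each gene, rAAV8-Hnf1aos1 over rAAV8-Scramble, on the horizontal axis (points; black bars, standard error; n = 3 libraries per group). Filled points mark an edgeR adjusted p under 0.05 and grey bands span the values with 1 library left out in turn. Osmr and Il1r1 are filled, Il6ra and Il1rap lie left of 0, and the grey band of Il1rn is the widest, from 0.25 to 1.62.

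Il6ra, the IL-6 binding chain (chr3:89864059-89913196, minus strand, GRCm38), stood at 785.9, 758.5 and 772.1 normalized counts in rAAV8-Scramble replicates 1, 2 and 3 and at 533.1, 712.7 and 484.6 in rAAV8-Hnf1aos1 replicates 1, 2 and 3. The controls lay within a narrow band and all 3 knockdown libraries were below it, replicate 2 by little and replicates 1 and 3 by more. This gave a log2 fold change of -0.42 ± 0.13 (SE, n = 3 per group; edgeR adjusted p = 0.0801). Without rAAV8-Hnf1aos1 replicate 2 it was -0.60 and passed the test (edgeR adjusted p = 0.0243), and without replicate 3 it was -0.31 (edgeR adjusted p = 0.128).

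Il6st, the gp130 chain shared by the receptors of IL-6, oncostatin M and leukaemia inhibitory factor (chr13:112464070-112510086, plus strand), had higher values in the knockdown group. It stood at 3502.7, 4023.9 and 3396.2 normalized counts in the controls and at 4792.0, 4879.6 and 4292.2 in the knockdown libraries. The lowest knockdown library was still above the highest control. Its log2 fold change was 0.35 ± 0.10 (SE, n = 3 per group, edgeR adjusted p = 0.0624). Without rAAV8-Hnf1aos1 replicate 3 it was 0.41 and passed the test (edgeR adjusted p = 0.0302). With any other library left out it did not pass (edgeR adjusted p from 0.0654 to 0.253).

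Osmr, the oncostatin M chain (chr15:6813577-6874969, minus strand), was the least abundant per length of the 4 receptor genes of the gp130 group. It stood at 109.8, 96.6 and 114.4 normalized counts in the controls and at 205.0, 175.8 and 131.3 in rAAV8-Hnf1aos1 replicates 1, 2 and 3. Replicate 3 was only just above the highest control, while replicate 1 reached 192% of the control mean. Osmr had a log2 fold change of 0.67 ± 0.18 (SE, n = 3 per group; edgeR adjusted p = 0.0477). This call lies close to the threshold. Leaving out any library other than rAAV8-Hnf1aos1 replicate 3 ended it, with edgeR adjusted p between 0.101 and 0.162, and without that replicate the fold change was 0.83 (edgeR adjusted p = 0.00560).

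Lifr, the leukaemia inhibitory factor chain, lies on the same chromosome (chr15:7090614-7197489, plus strand), 215644 bases from Osmr. It was the most abundant per length of the 10 genes and stood at 8552.7, 8101.7 and 6741.9 normalized counts in the controls and at 8918.4, 9980.7 and 16146.3 in rAAV8-Hnf1aos1 replicates 1, 2 and 3. The groups did not overlap, but replicate 1 was close to the highest control and replicate 3 reached 207% of the control mean. The log2 fold change was 0.58 ± 0.22 (SE, n = 3 per group; edgeR adjusted p = 0.169). Without rAAV8-Hnf1aos1 replicate 3 it was 0.28 (edgeR adjusted p = 0.178), so that library held much of the Lifr difference, although it had the lowest values of its group for Il6ra, Il6st and Osmr.

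**Figure D2:**
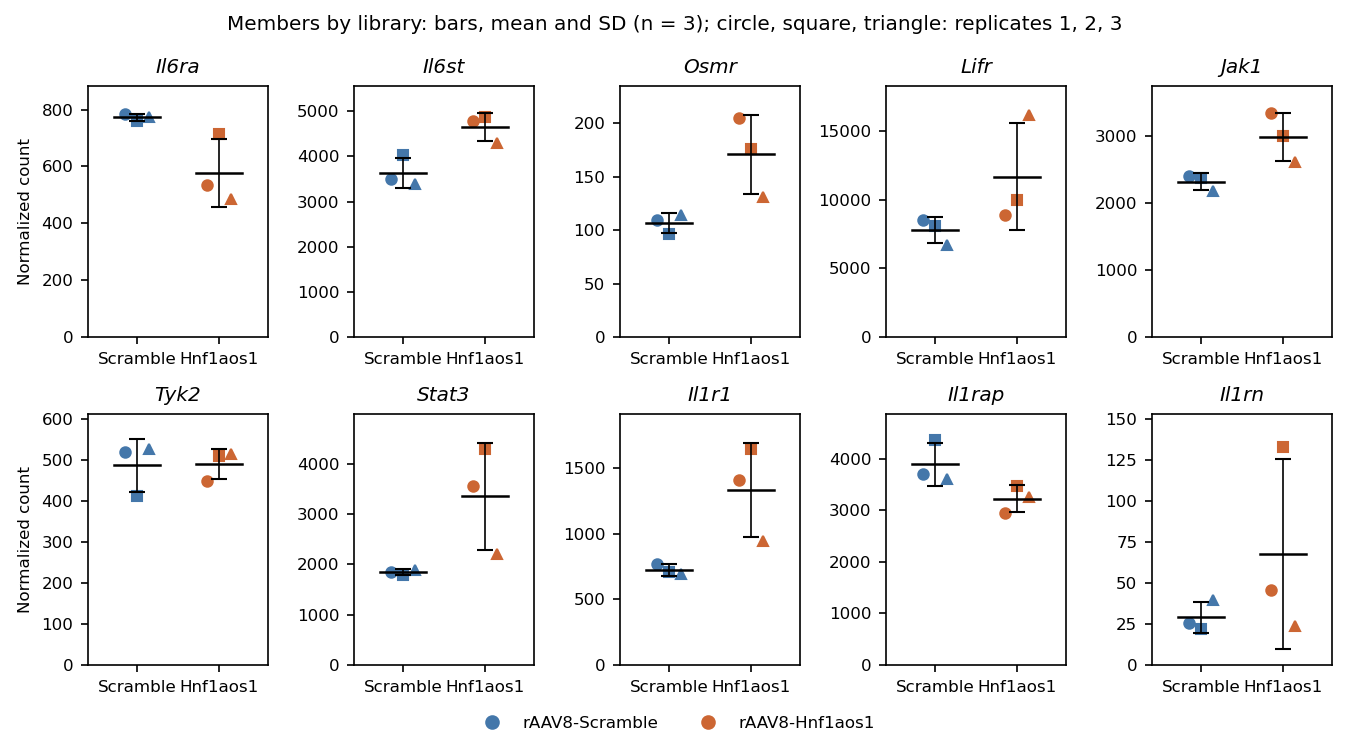
Normalized counts of the 10 genes in each library (vertical axis, from 0, own scale per gene), rAAV8-Scramble in blue and rAAV8-Hnf1aos1 in orange, with circles, squares and triangles for replicates 1, 2 and 3 and black bars for mean and SD (n = 3). For Stat3, Il1r1 and Osmr the orange triangle, replicate 3, sits nearest the controls, and for Lifr it is the highest point.

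Jak1 (chr4:101152367-101265282, minus strand), the kinase on which gp130 signalling mainly depends, stood at 2400.8, 2372.0 and 2169.9 normalized counts in the controls and at 3330.1, 2995.3 and 2609.4 in rAAV8-Hnf1aos1 replicates 1, 2 and 3. All knockdown libraries were above all controls. The log2 fold change of Jak1 was 0.36 ± 0.10 (SE, n = 3 per group, edgeR adjusted p = 0.0640). It was 0.45 and passed the test without rAAV8-Hnf1aos1 replicate 3 (edgeR adjusted p = 0.0144). With any other library left out it did not pass (edgeR adjusted p from 0.116 to 0.265).

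Tyk2 (chr9:21104068-21131243, minus strand), a further kinase of these chains, stood at 520.2, 413.8 and 527.9 normalized counts in the controls and at 449.2, 511.2 and 514.5 in the knockdown libraries. The knockdown values lay inside the range of the controls, and the log2 fold change was 0.01 ± 0.11 (SE, n = 3 per group; edgeR adjusted p = 0.960). With 1 library left out in turn the value stayed between -0.10 and 0.07, so its sign is not fixed by these data.

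Stat3 (chr11:100885098-100939540, minus strand), the transcription factor these chains activate, stood at 1858.1, 1791.3 and 1893.9 normalized counts in the controls and at 3558.0, 4293.3 and 2202.7 in rAAV8-Hnf1aos1 replicates 1, 2 and 3. The controls differed little among themselves. In the knockdown group replicates 1 and 2 reached 193% and 232% of the control mean and replicate 3 reached 119%. Stat3 had a log2 fold change of 0.86 ± 0.22 (SE, n = 3 per group) and did not pass the test (edgeR adjusted p = 0.0723). Without replicate 3 it was 1.09 (edgeR adjusted p = 3.49e-05), and DESeq2 called it with all libraries (DESeq2 adjusted p = 0.000102). With any other library left out, Stat3 did not pass (edgeR adjusted p from 0.111 to 0.231). It also missed the threshold with limma voom (limma voom adjusted p = 0.0909) and with no filter on low counts (edgeR adjusted p = 0.194). The strand setting of the counting is not given in the sources used here, and Stat3 shares exon positions with Stat5a on the opposite strand, which had 2681 counts over all libraries against 15846 for Stat3.

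Il1r1, the signalling receptor of IL-1 (chr1:40225080-40317257, plus strand), had the lowest edgeR adjusted p of the 10 genes. It stood at 771.5, 704.7 and 690.7 normalized counts in the controls and at 1408.5, 1644.9 and 942.9 in rAAV8-Hnf1aos1 replicates 1, 2 and 3. As for Stat3, replicates 1 and 2 were far above the controls, at 195% and 228% of the control mean, and replicate 3 was nearer to them, at 131%. Il1r1 had a log2 fold change of 0.88 ± 0.19 (SE, n = 3 per group; edgeR adjusted p = 0.0347). The call was kept without rAAV8-Hnf1aos1 replicate 3, where it was 1.08 (edgeR adjusted p = 3.17e-05), and lost without any of the other libraries, with values from 0.70 to 0.93 and edgeR adjusted p from 0.0571 to 0.159.

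Il1rap (chr16:26581704-26730117, plus strand), the chain that Il1r1 needs for signalling, had lower values in the knockdown group. It stood at 3701.8, 4357.6 and 3605.2 normalized counts in the controls and at 2949.6, 3468.5 and 3257.0 in the knockdown libraries. The highest knockdown library was just below the lowest control, and the log2 fold change was -0.27 ± 0.11 (SE, n = 3 per group; edgeR adjusted p = 0.150). The antisense gene Gm20319 overlaps its exons and had 2790 counts over all libraries against 21195 for Il1rap. Jak1 likewise overlaps Raver2 on the opposite strand, with 153 counts against 15999, and Il6ra and Tyk2 overlap the antisense genes Gm42809 and 1700084C06Rik, which were not analysed here.

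Il1rn, the receptor antagonist (chr2:24336853-24351494, plus strand), was scarce and uneven. It stood at 25.6, 22.0 and 39.6 normalized counts in the controls and at 45.8, 133.0 and 23.5 in rAAV8-Hnf1aos1 replicates 1, 2 and 3. The groups overlapped, and replicate 2 alone reached 458% of the control mean. The log2 fold change of 1.21 ± 0.67 (SE, n = 3 per group; edgeR adjusted p = 0.339) was 0.25 without that replicate and 1.62 without replicate 3 (edgeR adjusted p = 0.0654).

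The order of the 3 knockdown mice differed from gene to gene. rAAV8-Hnf1aos1 replicate 3 was the lowest of its group for Il6ra, Il6st, Osmr, Jak1, Stat3, Il1r1 and Il1rn and the highest for Lifr and Tyk2. Replicate 2 was the highest for Il6ra, Il6st, Stat3, Il1r1, Il1rap and Il1rn, and replicate 1 for Osmr and Jak1. Without replicate 3, edgeR called 5 of the 10 genes (Il6st, Osmr, Jak1, Stat3 and Il1r1), all higher. Of all genes tested, 11.0% were called in that fit, 962 genes higher and 836 lower. Without replicate 2 edgeR called Il6ra alone, as lower, beside 1.95% of all genes tested (137 genes higher and 182 lower). Without rAAV8-Hnf1aos1 replicate 1 (3.77% of all genes tested called) or rAAV8-Scramble replicate 1 (3.67%), 2 (2.41%) or 3 (0.631%) it called 0 of the 10, with 6 to 8 at an unadjusted p under 0.05 in these 4 fits.

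The scale of the libraries mattered for the size of the differences and for which genes were called. Tyk2, near 0, changed sign with library totals alone (log2 fold change -0.0618). Spike-in RNA took 1.38% to 1.52% of the reads in rAAV8-Scramble and 1.18% to 1.24% in rAAV8-Hnf1aos1. Scaled to the spike-ins, all genes tested had a median of 0.20 on the log2 scale, and of the genes called 89.3% were higher, against 48.9% with TMM scaling and 30.4% with library totals alone. On the spike-in scale Il6st, Osmr, Lifr, Jak1, Stat3 and Il1r1 were called higher. Of all genes tested, 20.8% were called there in either direction, 3030 genes higher and 364 lower. On that scale 6 of the 10 genes did not overlap between the groups, beside 39.9% of all genes tested. There Il1r1 and Stat3 had log2 fold changes of 1.08 and 1.06, above the shift of all genes, and Il6ra and Il1rap had -0.22 and -0.07. With library totals alone, edgeR called Il1r1 as higher and Il6ra as lower (edgeR adjusted p = 0.0436 for Il6ra), beside 6.42% of all genes tested, and Osmr missed the threshold (edgeR adjusted p = 0.0809). The same 8 genes did not overlap on that scale (29.0% of all genes tested), in the deposited normalized counts (28.7%) and in deposited TPM (28.8%). With no filter on low counts edgeR called 5 of the 10, Il6ra among them (edgeR adjusted p = 0.00537), beside 6.92% of the genes tested. limma voom called Il1r1 alone, beside 5.19%, and so did edgeR on genes with a mean of at least 50 counts, beside 6.93%.

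Levels of different genes were compared per length, as deposited TPM. In rAAV8-Scramble livers Lifr led with 94.3 ± 9.18 TPM (SD, n = 3), followed by Il6st with 82.9 ± 5.95, and their ranges over the 3 libraries overlapped. Stat3 with 52.4 ± 2.90 TPM and Jak1 with 49.9 ± 1.44 came next and overlapped each other. Below them, with no overlap between neighbours, were Il1rap at 37.9 ± 3.23, Il6ra at 29.8 ± 1.08, Il1r1 at 15.3 ± 0.797, Tyk2 at 12.1 ± 1.84, Osmr at 2.39 ± 0.266 and Il1rn at 1.36 ± 0.477 TPM. The transcript of the IL-6 binding chain was thus present at a lower level than that of its gp130 partner. The Osmr transcript was at a far lower level than either Il6st or Lifr. In rAAV8-Hnf1aos1 livers 8 of the 10 genes kept their rank and Il6ra and Il1r1 changed places, at 21.1 ± 4.07 and 26.8 ± 7.20 TPM, with overlapping ranges.

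**Figure D3:**
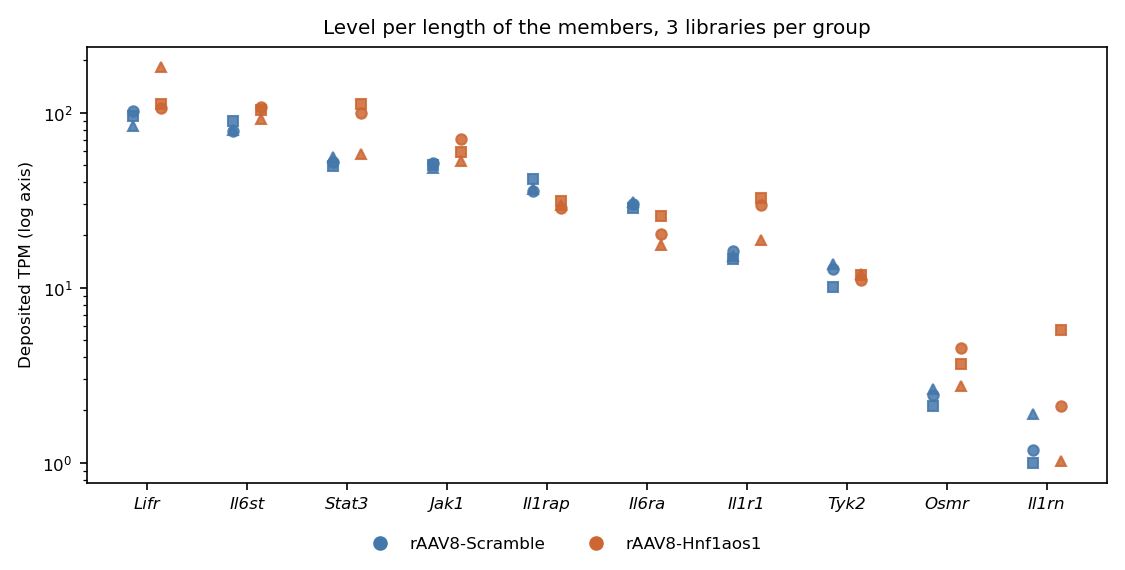
Deposited TPM of the 10 genes in each library (vertical log axis), ordered by the mean in rAAV8-Scramble, with rAAV8-Scramble in blue, rAAV8-Hnf1aos1 in orange and circles, squares and triangles for replicates 1, 2 and 3. Lifr and Il6st are highest, and Osmr and Il1rn are the lowest in both groups.

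The balance between the transcripts of chains of the same receptor was read within each library, where the scaling of the library cancels out. These are levels of whole-liver RNA, and protein was not measured here. These ratios were chosen after the values had been seen. In deposited TPM, Il6ra and Il1rap were lower and Il6st and Il1r1 higher in every knockdown library than in every control. The ratios of Il6ra to Il6st and of Il1r1 to Il1rap therefore had to separate, so their permutation p was fixed beforehand. They restate the differences of the single genes. The TPM ratio of Il6ra to Il6st was 0.380, 0.319 and 0.385 in the controls and 0.188, 0.247 and 0.191 in the knockdown libraries. Every knockdown liver had less Il6ra RNA for its Il6st RNA than every control. The mean was 0.361 ± 0.0366 against 0.209 ± 0.0333 (SD, n = 3 per group). The exact two-sided permutation p was 0.1, the smallest that 3 against 3 libraries can give. For Il1r1 to Il1rap the ratio was 0.453, 0.352 and 0.417 in the controls and 1.04, 1.03 and 0.629 in the knockdown libraries. There the Il1r1 transcript came to be about as abundant per length as that of Il1rap in replicates 1 and 2. The mean was 0.407 ± 0.0514 against 0.900 ± 0.234 (SD, n = 3 per group, exact two-sided permutation p = 0.1, again the smallest possible). The other 4 ratios computed (Lifr to Il6st, Osmr to Il6st, Il1rn to Il1r1 and Jak1 to Tyk2) overlapped between the groups, with exact two-sided permutation p from 0.2 to 0.9. Lifr to Il6st was 2.00 in rAAV8-Hnf1aos1 replicate 3, the highest of the 6 libraries, against 0.990 and 1.09 in replicates 1 and 2. With 6 ratios and this design no adjusted p can pass 0.05.

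**Figure D4:**
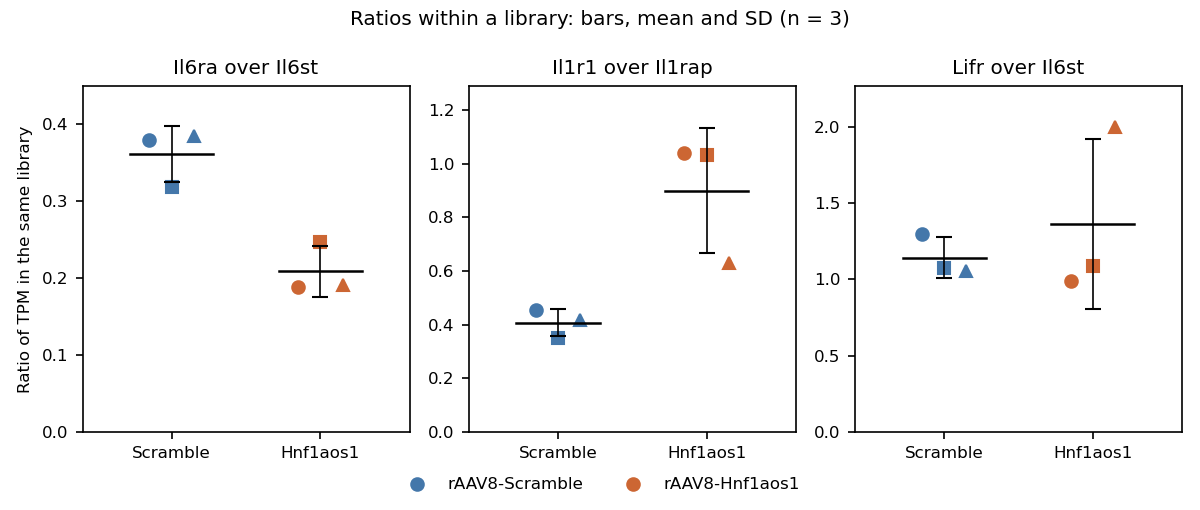
Ratio of the TPM of a pair of receptor chains within each library (vertical axis, no unit, from 0), in blue for rAAV8-Scramble and orange for rAAV8-Hnf1aos1, with circles, squares and triangles for replicates 1, 2 and 3 and black bars for mean and SD (n = 3). Il6ra over Il6st is lower and Il1r1 over Il1rap higher in all 3 knockdown libraries than in all 3 controls, and Lifr over Il6st overlaps.

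The ligands were scarce. Of 9 gp130 cytokines only Ctf1 and Cntf had enough reads to be tested, and neither passed the test (edgeR, 0 also at an unadjusted p under 0.05 and 0 by DESeq2). They had log2 fold changes of -0.28 and -0.26. Il6 was counted 2 times in rAAV8-Scramble replicate 3 and 1 time in rAAV8-Hnf1aos1 replicate 3 and was at 0 in the other 4 libraries, so a difference in Il6 was not detectable at this depth. Osm, the ligand of Osmr, had at most 3 counts in any library, and Lif and Il11 at most 4. Il27, Ebi3 and Clcf1 had at most 5, 15 and 11. Among the 4 further receptor chains that pair with gp130, 3 were tested and 0 passed edgeR or DESeq2, with 1 at an unadjusted edgeR p under 0.05. Il11ra1 had a log2 fold change of -0.32 (edgeR adjusted p = 0.0978) and Cntfr -0.52 (edgeR adjusted p = 0.263). Il27ra, added here after its values were seen, had 0.41 (edgeR adjusted p = 0.427), with all 3 knockdown libraries above all 3 controls.

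Downstream of the receptors, 2 of 19 genes that relay or restrain the gp130 signal rose and none fell. Over all genes tested 3.09% were called higher and 3.23% lower. The list's median log2 fold change was 0.06. Socs3, the feedback inhibitor that binds gp130, stood at 57.5, 51.6 and 59.4 normalized counts in the controls and at 129.7, 325.0 and 271.7 in rAAV8-Hnf1aos1 replicates 1, 2 and 3. Every knockdown library had more than any control, and here replicate 3 was not the one nearest to them. The log2 fold change of Socs3 was 2.11 ± 0.34 (SE, n = 3 per group; edgeR adjusted p = 0.0169). The Socs3 call was lost without any of the 3 control libraries, where the edgeR adjusted p reached 0.0973. With all libraries it also missed the threshold in limma voom (limma voom adjusted p = 0.0681).

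Of 23 hepatocyte genes known to be induced by IL-6 and STAT3, 22 were tested, 6 rose and none fell. Their median log2 fold change was 1.05 and 21 of the 22 were above 0. Over all genes tested the median was -0.000396, 8155 of 16327 were above 0, 3.09% were called higher and 3.23% lower. DESeq2 called 17 of the 22, all higher, beside 3.57% of the genes it tested called higher. The chains of fibrinogen, the clotting protein, were among the most abundant. Fgb stood at 50485, 44448 and 46264 normalized counts in the controls and at 111489, 119862 and 73476 in rAAV8-Hnf1aos1 replicates 1, 2 and 3 (log2 fold change 1.11 ± 0.17, SE, n = 3 per group; edgeR adjusted p = 0.00682). Replicate 3 again lay nearest to the controls, and without it the Fgb value was higher, with an edgeR adjusted p of 2.26e-05. Fgg and Fga had log2 fold changes of 1.04 ± 0.17 and 1.06 ± 0.19 (SE, n = 3 per group; edgeR adjusted p = 0.0106 and 0.0141), and without replicate 3 they had 1.23 and 1.27. Pim1, a survival kinase, rose by 0.85 ± 0.14 on the log2 scale (SE, n = 3 per group; edgeR adjusted p = 0.0106). The other two that were called were Hpx and A2m. The number called was 0 without rAAV8-Scramble replicate 3, 2 without rAAV8-Scramble replicate 2 and 12 without rAAV8-Hnf1aos1 replicate 3.

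On the IL-1 side, 8 of 12 further cytokines and receptors of the family were tested and 0 passed edgeR, beside 3 at an unadjusted edgeR p under 0.05 and 1 by DESeq2. Il1b, the main secreted IL-1, stood at 19.5, 31.8 and 29.7 normalized counts in the controls and at 68.7, 26.6 and 57.1 in the knockdown libraries, which overlapped (log2 fold change 0.91 ± 0.36, SE, n = 3 per group; edgeR adjusted p = 0.151). The log2 fold change was 0.36 for Il1a, 0.02 for Il18 and -0.38 for Il33, and it was -0.97 for the receptor Il1rl2 (edgeR adjusted p = 0.123). Of 18 genes that relay the IL-1 signal inside the cell, 1 rose and 1 fell, with a median log2 fold change of 0.17. The shares called over all genes tested were 3.09% higher and 3.23% lower. Myd88, the adaptor that Il1r1 and Il1rap recruit, stood at 183.7, 189.9 and 181.5 normalized counts in the controls and at 262.2, 317.4 and 250.9 in the knockdown libraries (log2 fold change 0.58 ± 0.13, SE, n = 3 per group; edgeR adjusted p = 0.0239). Nfkbia, the inhibitor that holds NF-kB in the cytoplasm, stood at 457.6, 530.2 and 458.6 in the controls and at 305.2, 251.8 and 322.4 in the knockdown libraries (log2 fold change -0.72 ± 0.12, SE, n = 3 per group; edgeR adjusted p = 0.00867). Neither gene overlapped between the groups. The Myd88 call was lost without any of the 3 control libraries or rAAV8-Hnf1aos1 replicate 2 (edgeR adjusted p up to 0.122), and the Nfkbia call without rAAV8-Scramble replicate 3 (edgeR adjusted p = 0.0560).

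**Figure D5:**
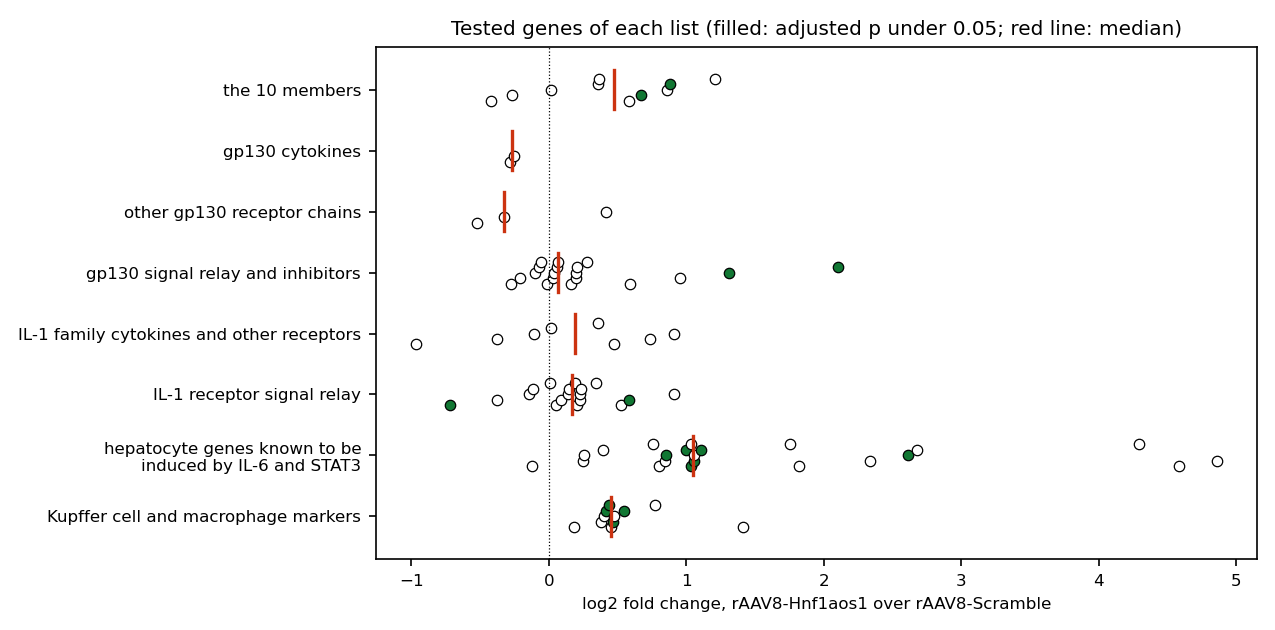
Log2 fold change (horizontal axis, rAAV8-Hnf1aos1 over rAAV8-Scramble) of every tested gene of the 10 genes, the 6 further lists of the pathways and the Kupffer cell markers, 1 point per gene. Filled points mark an edgeR adjusted p under 0.05 and red lines the median, which is 0.47 for the 10 genes, 1.05 for the IL-6 and STAT3 induced genes and 0.45 for the Kupffer cell markers.

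Il1r1, Il1rn, Stat3 and Osmr are also made by cells other than hepatocytes, so markers of those cells were read beside them. All 11 markers of Kupffer cells, the resident liver macrophages, had log2 fold changes above 0 and 4 rose (Adgre1, Clec4f, C1qa and C1qb), with a median of 0.45. Over all genes tested, 8155 of 16327 were above 0 and 3.09% were called higher. The summed level of the 11 markers was 248 to 299 TPM in rAAV8-Scramble and 391, 396 and 303 TPM in rAAV8-Hnf1aos1 replicates 1, 2 and 3. Replicate 3 was thus nearest to the controls there too. All 4 calls were kept without replicate 3 and lost without rAAV8-Scramble replicate 2 or 3 or rAAV8-Hnf1aos1 replicate 1 or 2 (edgeR adjusted p from 0.0583 to 0.208). Without rAAV8-Scramble replicate 1, Adgre1 and C1qb were lost (edgeR adjusted p = 0.0729 and 0.0839), and Clec4f and C1qa were kept. With library totals alone only C1qa was called, and Adgre1, Clec4f and C1qb were not (edgeR adjusted p = 0.0865, 0.0516 and 0.0865). Adgre1 was not called by DESeq2 (DESeq2 adjusted p = 0.0791), and it and C1qb were not called by limma voom. The part of Kupffer cells in the values of Il1r1, Stat3 and the other genes was not tested. Neutrophil and monocyte markers summed to 4.52 to 8.79 TPM in the controls and 7.36 to 14.6 TPM in the knockdown libraries, with 0 of the 4 tested called (0 at an unadjusted edgeR p under 0.05 and 0 by DESeq2) and Ly6g and Mpo at 0 in every library. Endothelial markers summed to 189 to 196 against 158 to 183 TPM and stellate cell markers to 182 to 244 against 151 to 196 TPM, with none called in either list by edgeR or DESeq2 and 0 and 1 at an unadjusted edgeR p under 0.05. Cholangiocyte markers summed to 32.8 to 38.9 TPM in the controls and to 183, 46.8 and 47.8 TPM in rAAV8-Hnf1aos1 replicates 1, 2 and 3. Markers of T, NK and B cells summed to 11.4 to 15.6 against 12.3 to 13.9 TPM, and skeletal muscle markers to 54.0 to 189 against 21.7 to 65.9 TPM. In these last 3 lists edgeR called 0 genes, where 0, 1 and 2 had an unadjusted p under 0.05 and 0, 0 and 1 called by DESeq2.

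The promoters were read from RefSeq (GRCm38.p6) as windows from 250 bases before to 50 bases after each start, and all 10 genes matched by symbol, with 14 windows. The STAT consensus TTCNNNGAA, which reads the same on both strands, was in none of the 14 windows, in 11 of 92 windows (12.0%) of the other pathway genes and in 8.30% of all 32851 windows. No match says only that these letters are not in this window. The matches in genes called here are shown with their flanks, 5′ to 3′ on the strand of the gene, with the motif in capitals, because they are the called pathway genes whose windows hold it. They lie at chr11:117969492-117969540 for Socs3, chr9:119340036-119340084 for Myd88, chr3:83025903-83025947 for Fga and chr3:83049997-83050045 for Fgb.
Socs3: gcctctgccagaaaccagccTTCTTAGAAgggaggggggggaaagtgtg
Myd88: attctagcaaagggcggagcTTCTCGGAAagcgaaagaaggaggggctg
Fga: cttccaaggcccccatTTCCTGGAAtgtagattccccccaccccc
Fgb: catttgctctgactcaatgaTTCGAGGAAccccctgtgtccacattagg
The motif began 154, 46, 234 and 162 bases before the start in these 4 genes.

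The genes called and Stat3 differed among themselves in CG content before the start. The 100 bases before the RefSeq start are shown for Osmr (chr15:6874314-6874413, minus strand), Il1r1 (chr1:40224980-40225079, plus strand) and Stat3 (chr11:100939541-100939640, minus strand), with each CG in capitals.
Osmr: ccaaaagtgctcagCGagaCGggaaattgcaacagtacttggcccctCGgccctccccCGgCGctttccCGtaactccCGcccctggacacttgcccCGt
Il1r1: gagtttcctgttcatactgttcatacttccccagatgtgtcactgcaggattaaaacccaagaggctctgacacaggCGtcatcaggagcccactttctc
Stat3: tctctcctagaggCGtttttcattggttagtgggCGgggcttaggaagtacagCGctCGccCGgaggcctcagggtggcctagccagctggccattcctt
These stretches hold 8, 1 and 5 CG. The gene positions given above come from another annotation, GENCODE, whose ends can differ from the RefSeq starts. The Osmr stretch and the Lifr windows lie inside those gene positions. Over the 250 bases before the start, Osmr had 18 CG and Stat3 13, while the Il1r1 window shown had 3 and its other window 7, beside a median of 6 over all windows. The highest count was in a Lifr window with 43, which 0.712% of all windows reach, and the lowest in an Il1rn window with 1. Of the 2 genes that rose, Osmr thus had more CG before the start than either Il1r1 window.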

How the data were processed

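Liver RNA-seq of 6 mice was analysed, 3 of the rAAV8-Scramble group and 3 of the rAAV8-Hnf1aos1 group, grouped by the sample titles. The authors trimmed reads with Trimmomatic, aligned them with STAR and counted exonic reads with a unique alignment by featureCounts; the deposited raw counts are whole numbers without normalization. The authors also deposited TPM, whose calculation is not given in the sources used here, and normalized counts, a signal in which 1 factor scales each library, for 16189 features. The study's methods name GRCm38, and the submitters' processing notes list GRCm39, so gene positions here are those of GENCODE for GRCm38 and no read was placed by them. The methods name a stranded poly(A) kit and the labels a ribosomal RNA depletion, while the strand setting of the counting and the annotation release are not given in the sources used here. The table of the authors' own comparison, with fold changes and p-values, was not used.

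The 92 spike-in rows were left out. Genes were filtered with filterByExpr, scaled by TMM and tested by group with edgeR 4.0.16 (glmQLFit with robust dispersion, glmQLFTest) in R 4.3.3, with Benjamini-Hochberg adjustment over 16327 genes and a threshold of 0.05. The standard error is the log2 fold change over the root of F, and the biological coefficient of variation was 13.9%. Normalized counts in the text are raw counts over the TMM effective library size, set to the mean library. The fit was tested on simulated data in which the planted changes were larger than those of the receptor and signalling genes. That test therefore does not cover changes of their size. Single ratios were compared with exact two-sided permutation tests in scipy 1.17.1, and figures were drawn with matplotlib 3.10.9. Alternatives were DESeq2 1.42.0, limma 3.58.1 (voom, log2 of TPM plus 0.1 or 1, and log2 of normalized counts plus 1), other scalings and filters, the replicate number as a block, and each library left out in turn. The fits without 1 library leave a group of 2 and pool the spread.

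The genes and gene lists were chosen with earlier results of these data known, and the fits on other scalings for the overlap between groups were added after seeing the data. All 10 genes are named; of each pathway list the called genes are named if 4 or fewer, otherwise the 4 with the lowest adjusted p, and where none was called the 2 with the lowest; the cytokines and Socs3 are named in any case. A called gene of the gp130 relay list is not reported here. Marker lists are given by counts and sums. Depth limits low genes, since Il1rn rests on 20 to 140 reads per library and Il6 on 0 to 2.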

Additional observations from a re-analysis of the deposited data

How the results depend on the processing

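Over all genes edgeR called 1032, against 3394 with library sizes from spike-ins and 1902 with no filter on low counts, and between 103 and 1798 with 1 library left out (103 without rAAV8-Scramble replicate 3, 1798 without rAAV8-Hnf1aos1 replicate 3). Of the 10 receptor and signalling genes 2 were called, against 6 with spike-in scaling, 6 with DESeq2, 5 with no filter (Il6ra among them), 2 with library totals (Il1r1 higher and Il6ra lower), 1 with limma voom, 1 with a mean of at least 50 counts and between 0 and 5 with 1 library left out. Of the pathway genes 10 were called, against 31 with spike-in scaling, 24 with DESeq2 and between 0 and 21 with 1 library left out. The 8 genes without overlap were 6 with spike-in scaling. Hnf1aos1 had a log2 fold change of -0.74 that missed the threshold and passed it with DESeq2 (-0.74), limma voom (-0.77), no filter (-0.74) and without rAAV8-Hnf1aos1 replicate 3; with 1 library left out it ranged from -1.01 to -0.60. Osmr lost its call in 12 of 17 alternatives and Il1r1 in 7 of 17. The causes were not tested.

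Tyk2 changed sign with library totals (-0.0618), a mean of at least 50 counts (-0.0200), log2 of TPM plus 0.1 (-0.0575), log2 of TPM plus 1 (-0.0542) and in 3 fits without 1 library (range of all 6 from -0.099 to 0.0734). Il18 changed sign with library totals (-0.0601), a mean of at least 50 counts (-0.0175) and in 3 fits without 1 library (range of all 6 from -0.11 to 0.15). No other gene whose fold change is printed changed direction in the alternatives run. A mean of at least 50 counts gave no value for Il1rn, which it removes.

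The replicate numbers are shared between the groups, but same-numbered libraries did not deviate together (correlations of -0.02, 0.02 and 0.00 over 16327 genes). No pairing by number was thus visible in the values. Whether the mice were handled in pairs is not given in the labels, and these correlations cannot decide it. With the replicate number as a block 878 genes were called, 1 of the 10 (Il1r1) and 12 pathway genes, and Hnf1aos1 had -0.77 and passed the threshold.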
